A study of Camponotus floridanus with 48 samples.

Results

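The 150 transcripts described here are those whose level differed least between 48 larvae of Camponotus floridanus, the Florida carpenter ant. They were chosen by their measured values in the authors' normalized table. Of its 26314 entries, 23896 were predicted or curated protein-coding transcripts by their RefSeq prefix, and 23058 of these were 601 to 14999 bases long. A median over the larvae between 200 and 20000 normalized counts left 10389, and an absolute Spearman correlation with larval length under 0.2 left 5222. The members are the 150 of these with the lowest coefficient of variation (CV, the standard deviation over the 48 larvae as a percent of their mean). The other 5072 serve as the comparison below. Because spread, level, transcript length and correlation with larval length chose the members, their values on these measures are given as a description and carry no test.

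All larvae were female, at the terminal larval stage and from colony 30, with no treatment named, and each was a separate animal sequenced from its whole body after selection of polyadenylated RNA. Workers of this species differ widely in body size, and the study measured each larva's length, from 4648.07 to 7598.06 µm. For description the larvae are split into the 16 shortest (up to 5376.84 µm), the 16 intermediate (5395.82 to 6613.4 µm) and the 16 longest (from 6689.42 µm). With a single colony, p-values measure the spread between larvae of that colony. The libraries held 6608777 to 63171583 estimated reads. The 2 thinnest, from larvae No. 42 and No. 43 in the group of the longest, had fewer than 10000000 reads, and the next had 29813779. On the first principal component of gene levels, which held 44.02% of the variance, 15 libraries scored above 20 and stood apart from the other 33. Of these 15 larvae, 2 were among the 16 shortest, 8 among the intermediate and 5 among the longest. The labels name no batch for them, so the main results that touch them are given with and without them.

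Transcripts of steady level often come from genes that most cells use for basic work, such as making proteins, handling RNA or supplying energy, and such genes are the customary references against which changing genes are measured. In RNA sequencing a transcript's level is always relative to the other RNA of the library, so constancy depends on what the library is scaled to. In whole-body RNA, the number of cells of a type and the RNA each cell holds cannot be told apart. All 150 members carry the prefix of predicted models, lie in 150 different protein-coding genes, and have a locus number for a symbol. The annotation used here pairs them with no product name, so no function is given for any of them.

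The member of lowest CV was XM_011256114.3 of LOC105250152, at 1117 normalized counts in the lowest larva, 1257 in the median larva and 1415 in the highest. Its CV was 6.02%, and the highest larva stood 1.27 times above the lowest. It averaged 1246 ± 53.7 normalized counts in the 16 shortest larvae, 1253 ± 85.5 in the intermediate and 1281 ± 84.3 in the longest (SD, n = 16 each). Across the whole range of body length, the means of this transcript lay within 1 SD of each other. XM_011264411.3 of LOC105255242 ran from 933 to 1261 with a median of 1067 and a CV of 6.04%. XM_011266779.3 of LOC105256653 ran from 1142 to 1572 with a median of 1336 and a CV of 6.07%. XM_011254683.3 of LOC105249316 followed at 1567 to 2019, with a median of 1819 and a CV of 6.29%. These 4 transcripts come from genes with a single annotated transcript.

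XM_011265830.3 of LOC105256140, a gene with 3 annotated transcripts, came next at 1010 to 1301 normalized counts around a median of 1130 (CV 6.57%). After it ranked XM_011260059.3 of LOC105252602 at 730 to 1002 (median 882, CV 6.58%). XM_011254324.3 of LOC105249102 had a higher level, 2532 to 3477 (median 3103, CV 6.72%). XM_011256486.3 of LOC105250387, the shortest of the first 10 at 969 bases, ran from 720 to 1021 (median 889, CV 6.82%). Then came XM_011260043.3 of LOC105252591 at 1114 to 1562 (median 1297, CV 6.86%), and last of the 10 XM_011264742.3 of LOC105255448 at 6487 to 9551 (median 7860, CV 6.87%). In these 10 transcripts the highest larva was between 1.27 and 1.47 times the lowest, and several different larvae held the extremes.

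**Figure D1:**
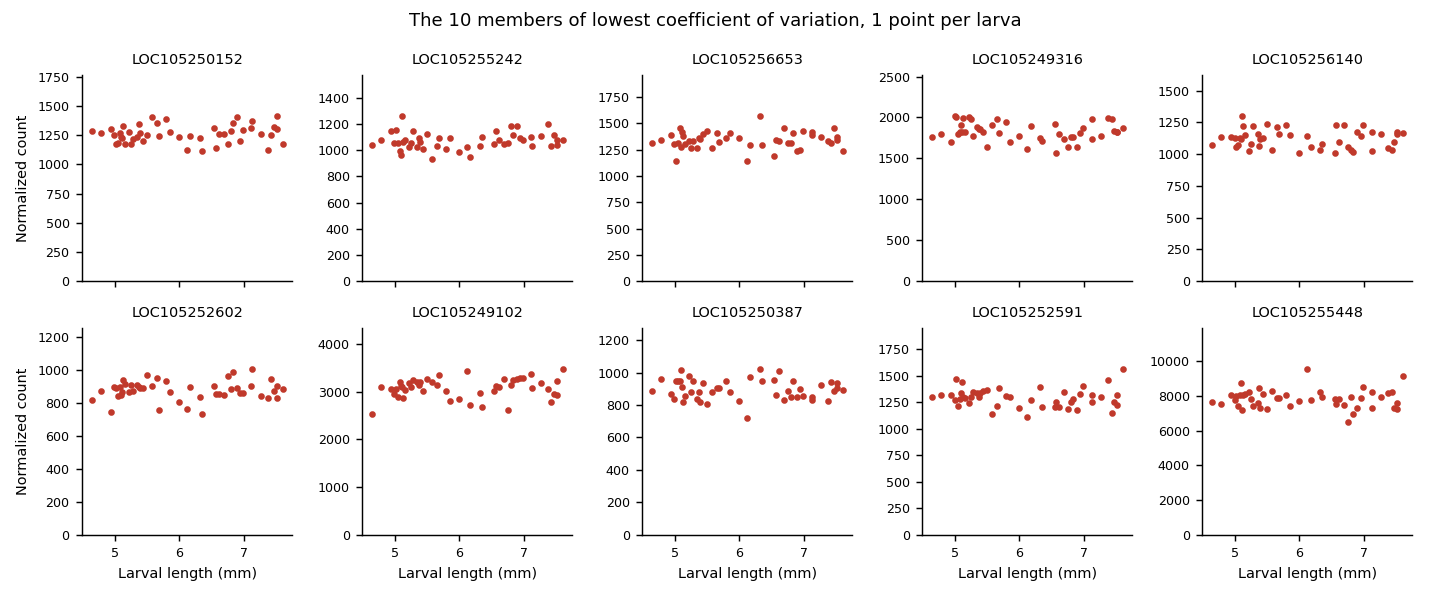
Normalized count (vertical axis, from 0) against larval length in mm (horizontal axis) for the 10 members of lowest CV, with 1 point per larva. Each cloud runs level over the lengths, with CVs from 6.02% to 6.87%.

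Over all 150 members the CV ran from 6.02% to 10.1% with a median of 8.97%, against a median of 32.8% in the 5072 other transcripts. The ratio of the highest to the lowest larva was 1.27 to 1.91 (median 1.50) in the members, and its median was 3.77 in the 4172 others that had a value above 0 in every larva. The rule limited the median to 200 to 20000 normalized counts, and 145 of the 150 members had a median of at least 500. The medians of the members spanned 274 to 10073. The lowest of these was XM_011264026.2 of LOC105255001, at 213 to 332 with a median of 274. The most abundant was XM_011252524.3 of LOC105248007, with 8515 in the lowest larva, 10073 in the median and 12508 in the highest. After it and LOC105255448 came LOC105251508 (XM_011258365.3) at 5096 to 7181, with a median of 6024. LOC105247789 (XM_011252165.3) ran from 4358 to 7177 with a median of 5940, and LOC105254570 (XM_011263334.3) from 4692 to 6923 with a median of 5841. Expressed per length as TPM, a transcript's share of all transcripts of its library, the median level was 31.4 in the members and 12.0 in the other transcripts.

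The widest range within the group belonged to XM_011268991.3 of LOC105258001, at 1091 normalized counts in larva No. 4, a median of 1626 and 2086 in larva No. 49, a ratio of 1.91. XM_025407088.1 of LOC105255853 had 1020 in larva No. 42, which was thinly sequenced, and 1923 in larva No. 2 (ratio 1.88). XM_011267307.3 of LOC105256985 had 601 in larva No. 33 and 1106 in larva No. 4 (ratio 1.84). The limit of 150 cut through a continuous range. Just inside it lay LOC105253589, LOC105248891, LOC105259567, LOC105256985 and LOC112638529 with CVs from 10.10% to 10.13%. Just outside lay LOC105250070, LOC105249164, LOC109609943, LOC105249127 and LOC105249724 with CVs from 10.14% to 10.23%. The limit on correlation decided more: 346 transcripts had a CV no higher than the highest member's, and 196 of them were left out because their correlation with length reached 0.2 in size. LOC105258912 (rho = -0.1997) and LOC105255409 (rho = -0.197) lay just inside this second limit. LOC105259031 (rho = -0.204) and LOC105256944 (rho = -0.2045) lay just outside.

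**Figure D2:**
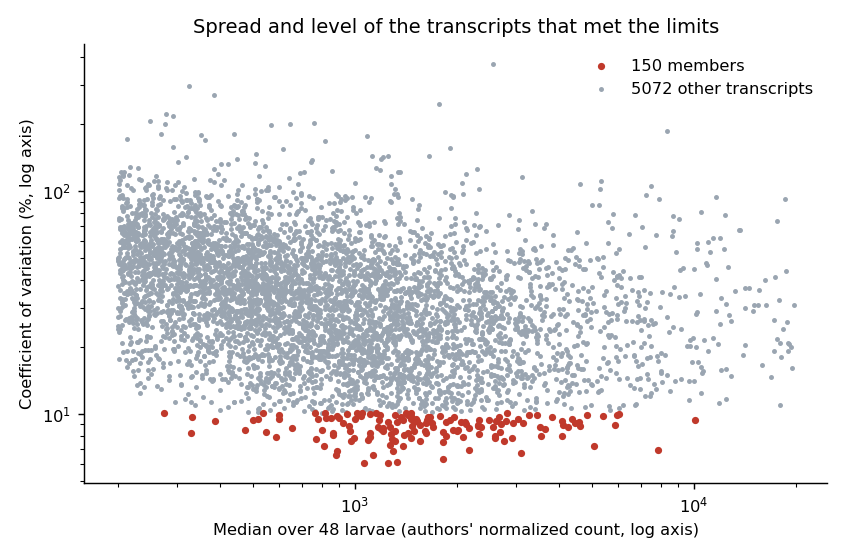
CV over the 48 larvae (vertical axis, percent, log axis) against the median normalized count (horizontal axis, log axis) for the 150 members and the 5072 other transcripts that met the limits on length, median and correlation. The members form the lower edge of the cloud, from 6.02% to 10.1%, at medians from 274 to 10073.

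At the mean depth, counting error made up a small part of this spread in the median member. From the mean estimated reads over the libraries, counting alone gives the members a CV of 2.51% in the median (0.959% to 5.87%), which is 7.74% of the squared CV in the median member and 42.3% in the highest. Thin libraries have a larger counting error, so figures from the mean depth are on the low side. Members had 1589 estimated reads per library in the median, and between 33 and 1592 in their thinnest library. These figures cover counting error only, since reads amplified by PCR are not independent molecules.

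By larval length, the members' means stayed close together. The ratio of the mean in the 16 longest to that in the 16 shortest was 0.943 to 1.05, and that of the intermediate to the shortest 0.915 to 1.09. All 150 members were therefore within 10% of equality on both, as the choice on low spread and low correlation largely fixes. Among the other transcripts 69.2% were within 10% for the longest over the shortest and 45.1% for the intermediate over the shortest. The spread within each length group differed more than the means did. The median CV of the members was 7.37% within the 16 shortest larvae, 9.81% within the intermediate and 8.69% within the longest, and in the other transcripts it was 25.4%, 36.6% and 32.1%. In both sets of transcripts the shortest larvae differed least from each other and the intermediate larvae, which include 8 of the 15 libraries that stand apart, differed most. Without the 15 libraries, the members' median CV was 7.10% in the remaining 14 of the shortest larvae, 7.88% in 8 of the intermediate and 7.68% in 11 of the longest. In the other transcripts it was then 21.7%, 24.3% and 24.6%, a smaller gap between length groups than with all 48 larvae.

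The extremes were spread over many larvae, though larva No. 4 held a large part of the lowest values. Of the 150 lowest values, larva No. 4 held 30, larva No. 43 held 11, larva No. 32 held 10 and larva No. 38 held 9. Of the 150 highest values, larva No. 18 held 13, larva No. 29 held 11 and larva No. 43 held 9. The median member lay 0.11 below its own median on the log2 scale in larva No. 4 and 0.09 above it in larva No. 18. The members' deviations were also the most scattered in larva No. 4, with an SD of 0.23 on the log2 scale, against a range of 0.08 to 0.19 in the other 47 larvae. Larva No. 4 is among the 15 libraries that stand apart, and No. 43 has the fewest reads. Without larva No. 4 the same rule kept 134 of the 150 members.

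**Figure D3:**
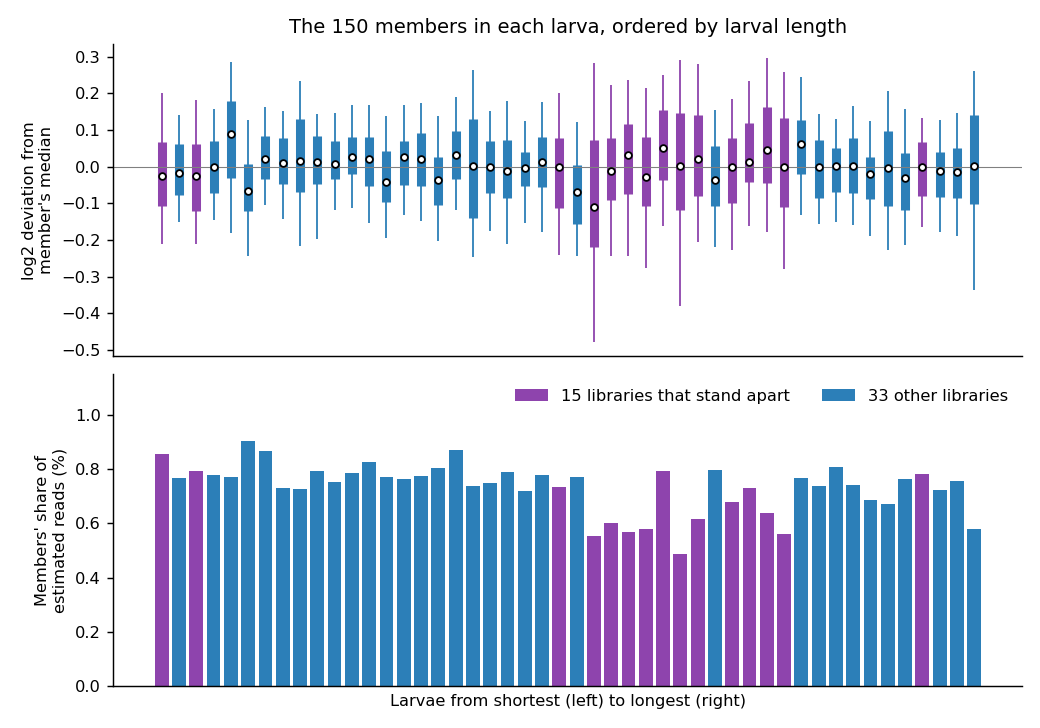
Upper panel: log2 deviation of the 150 members from their own medians in each larva, ordered from the shortest to the longest, with the median (point), quartiles (thick line) and 5th to 95th percentile (thin line). Lower panel: the members' summed share of all estimated reads in percent. Medians in the upper panel lie between -0.11 and 0.09, while the share in the lower panel is as low as 0.487% in 1 of the 15 libraries that stand apart.

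Members differed little between the 15 libraries that stand apart and the other 33, as a low spread over all 48 in part requires. The ratio of the mean in these 15 to that in the other 33 was 0.865 to 1.16 in the members, and 133 of 150 (88.7%) were within 10% of equality, against 13.4% of the other transcripts. In 76 members the ratio was above 1. The members farthest apart, named after their values were seen, lay on opposite sides. XM_011262825.3 of LOC105254271 averaged 1847 normalized counts in the 15 and 1591 in the 33, and XM_011270149.3 of LOC105258704 averaged 785 in the 15 and 908 in the 33. Within the 15 libraries the members' median CV was 9.20%, and within the 33 it was 7.71%. With the rule applied to the 33 libraries alone, 59 of the 150 were chosen again.

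The members' spread depended on the scale. They were chosen for low spread in the authors' table, so a wider spread on other scales is in part fixed by the choice. Summed over the 150 members, the authors' normalized counts ran from 280742 to 313185 with a CV of 2.42% over the larvae. The same transcripts took 0.487% to 0.902% of a library's estimated reads, a CV of 12.4%, and their summed TPM ran from 3366 to 8005, a CV of 17.9%. The share of reads averaged 0.791 ± 0.0483% in the 16 shortest larvae, 0.697 ± 0.112% in the intermediate and 0.713 ± 0.0732% in the longest (SD, n = 16 each). Without the 15 libraries that stand apart it averaged 0.786 ± 0.0487% (n = 14), 0.777 ± 0.047% (n = 8) and 0.729 ± 0.0647% (n = 11) in the same order. In the 15 libraries that stand apart the share was 0.487% to 0.854% with a median of 0.638%, and in the other 33 it was 0.580% to 0.902% with a median of 0.768%. Summed TPM showed the same order, with a median of 4776 in the 15 and 6906 in the 33, although the ranges overlapped. The authors' table does not give libraries equal totals: its sum ran from 34570000 to 62400000 (median 48600000) in the 15 libraries and from 31040000 to 50450000 (median 38270000) in the 33. The 10 entries with the most reads took a median of 16.7% of reads in the 15 and 26.3% in the 33.

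Other scalings of the same estimated counts changed the CVs and the choice of transcripts. The authors' values are themselves estimated counts divided by a factor that is not the same for every transcript of a library. Among values of at least 100 reads, the 95th percentile of this factor was 1.02 to 1.55 times the 5th within a library, with a median of 1.07, and 1.01 to 1.37 times among the members. With size factors from the median of ratios (RLE), the members' median CV was 9.27%, and 113 of the 150 were again among the 150 chosen by the same rule. With counts as a share of the library (CPM) after TMM scaling these values were 9.57% and 90. With CPM by the plain total count the median CV was 15.3% and 0 of 150 were chosen again, and with TPM it was 20.0% and 0. Most members also left the limit on correlation on these last 2 scales. With the plain total, 147 members fell below the negative limit of correlation with length and 3 stayed inside it, and with TPM 116 fell below and 34 stayed inside. The 150 chosen anew had CVs up to 10.5% with RLE, 10.9% with TMM, 13.9% with CPM by the total count and 14.1% with TPM. On each of the 5 scales the members were less variable in the median than all 10389 transcripts, whose median CV was 30.4% in the authors' table, 31.9% with CPM by the total count and 33.9% with TPM. All 5 scales rest on the same estimated counts, in which the members were chosen for low spread, so nothing is read from this.

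In the authors' table pairs of members moved together, apart or in no clear relation. Over 11175 pairs of members, Pearson r of the log2 normalized counts across the 48 larvae had a median of 0.05 and ran from -0.76 to 0.83. The highest r was between LOC105250962 and LOC105253253 and the lowest between LOC105253244 and LOC105254461, both named after their values were seen. Within the 15 libraries the median was 0.07, and within the 33 it was 0.06. With CPM by the total count the median r was 0.71 and with TPM 0.87, and 100% of pairs lay above 0 on both. These are descriptions over pairs that share libraries and depth. In 3 cases 2 member genes are listed next to each other in the annotation, and their r was 0.03, 0.58 and -0.15. The annotation used gives no coordinates, so whether they are neighbours in the genome is not known.

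A feature the rule did not use set the members apart from the rest in its frequency. Of the 150, 119 (79.3%) are the sole annotated transcript of their gene, against 28.8% of the 5072 others. A further 18 come from genes with 2 transcripts and 13 (8.67%) from genes with 3 or more, a class that held 46.0% of the others. Put the other way, 7.53% of the eligible transcripts from 1-transcript genes were members and 0.851% of those from genes with several. Members were also shorter, with a median of 1762 bases against 2514 (677 to 9014 bases in the members), and 6.0% of them against 25.9% of the others exceeded 4000 bases. Among 1-transcript genes alone the lengths were closer, with a median of 1692 bases in the members and 1766 in the others.

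The excess of 1-transcript genes appeared on every scale tried, all of which rest on the same estimated counts. The choices with RLE and TMM also repeated 113 and 90 of the members, so the scales are not independent of each other. Choosing the 150 of lowest CV anew gave 76.7% with RLE, 73.3% with TMM, 70.0% with CPM by the total count and 72.7% with TPM, while 26.6% to 30.2% of the eligible transcripts were of that kind. It was much smaller once the transcripts of a gene were added up. The same rule on gene sums chose 58.0% 1-transcript genes, where 50.5% of the 3129 eligible genes had 1 transcript. Salmon divides reads that fit several transcripts of a gene among them, and the part of this step in the difference was not tested.

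**Figure D4:**
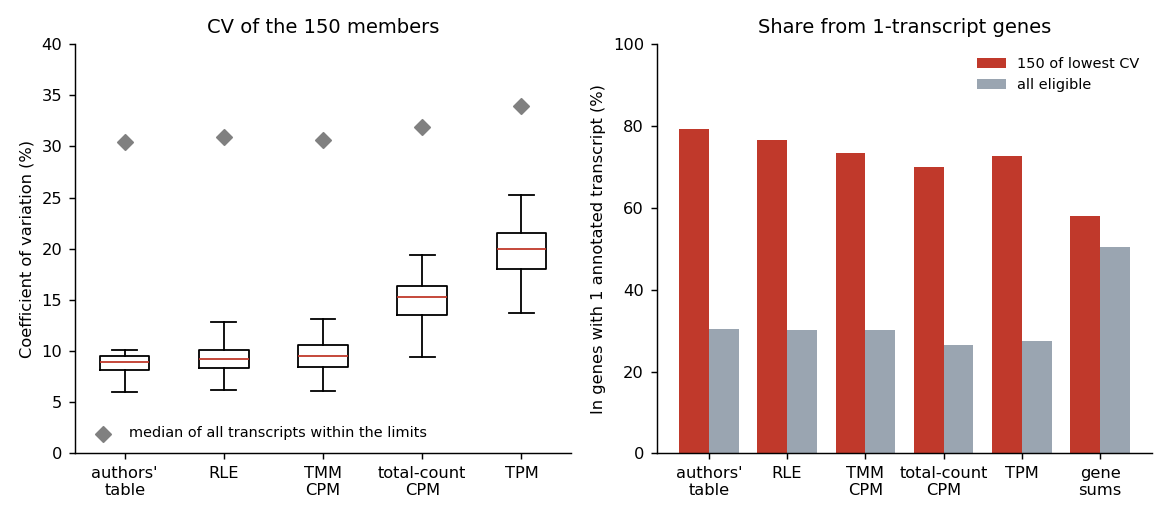
Left: CV in percent of the 150 members under 5 scalings (box, quartiles; line, median; whiskers, range), with the median of all 10389 transcripts as diamonds. Right: percent from genes with 1 annotated transcript among the 150 of lowest CV and among all eligible, under the same scalings and for gene sums. Members' median CV is 8.97% in the authors' table and 20.0% with TPM, and the excess of 1-transcript genes is 79.3% against 30.3% in the authors' table and 58.0% against 50.5% for gene sums.

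The remaining 31 member genes have 55 other annotated transcripts, 51 coding and 4 non-coding. In these genes the member took a median of 90.1% of the gene's estimated reads (27.1% to 99.5% over the genes), above 90% in 16 genes and under 50% in 1. The other transcripts were lower and less steady, with a median level of 116 normalized counts and a median CV of 50.5%, and all 52 that had any reads varied more than the member of their gene. Of these, 19 had a median of at least 200 normalized counts, and their median CV was 28.2% (up to 66.0%). Members were chosen for the lowest CV, which in part fixes this order, so nothing is read from it. The steadiest of the other transcripts was XM_011264593.3 of LOC105255358, at 1467 to 3079 with a median of 2360. The gene sums of the 31 genes had a median CV of 8.78%, and in 18 genes the sum varied less than the member. In LOC105250088 the sum had a CV of 5.10% and the member one of 9.43%.

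LOC105255853, named after its values were seen, had the most variable gene sum of the 31 genes, with a CV of 31.6%, while the CV of its member was 8.97%. Its member XM_025407088.1 (3932 bases) had 1409 to 1703 normalized counts in the 15 libraries that stand apart and 1020 to 1923 in the other 33, with medians of 1550 and 1562. Its sister XM_025407087.1 (1836 bases) had 252 to 2843 with a median of 1439 in the 15 and 2004 to 5984 with a median of 3992 in the 33. The remaining transcript, XM_025407085.1, had a median of 281 in the 15 and 757 in the 33. The CVs of these sisters, 44.9% and 51.2%, are near the median of all other transcripts of member genes. The member's share of the gene's reads ran from 17.2% to 65.2%. The part of Salmon's division of reads in this was not tested.

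Whether the other transcripts of member genes changed with larval length was tested with edgeR's quasi-likelihood test over all 19714 transcripts that passed the filter on low counts. The test called 13.6% of them, 7.16% rising and 6.48% falling with length (Benjamini-Hochberg adjusted p under 0.05). Of the 49 other transcripts that could be tested, 2 (4.08%) passed, 1 in each direction, a lower share than that background over few transcripts. On simulated counts the tests of slope, curve and usage made more calls on unchanged entries than the threshold allows, so adjusted p-values near 0.05 are less firm than they read. The slopes of the 49 ran from -0.49 to 0.47 log2 per mm with a median of 0.02. For the members, chosen for a low correlation with length, 0 of 150 passed and 0 had an unadjusted p under 0.05. The members' slopes lay between -0.05 and 0.04, and nothing is read from that count. DESeq2 and limma on the authors' table also called 0 members, in fits that called 17.4% and 15.7% of all transcripts. The choice of members favours this too, and limma used the table that chose them, so nothing is read from it. Without the 15 libraries 7 members (4.67%) passed, all falling, in a fit that called 16.2% of all transcripts, 8.76% falling. With these libraries as a covariate 2 members (1.33%) did, both falling, where 15.7% of all transcripts passed, 8.18% falling.

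The transcript that rose was XM_011267732.3 of LOC105257251, with 62.4 to 164 normalized counts (median 108) in the 16 shortest larvae. It had 110 to 404 (median 199) in the intermediate larvae and 115 to 313 (median 215) in the longest. The ranges of the shortest and longest larvae overlapped, but the lowest of the longest exceeded the median of the shortest. Its slope was 0.47 ± 0.08 log2 per mm (SE, edgeR adjusted p = 3.08e-05). The member of the gene, XM_011267730.3, averaged 1412 ± 139 normalized counts in the shortest larvae, 1384 ± 137 in the intermediate and 1349 ± 119 in the longest (SD, n = 16 each).

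The transcript that fell was XM_025410964.1 of LOC105257882, with 183 to 500 normalized counts (median 316) in the 16 shortest larvae. It had 197 to 371 (median 263) in the intermediate and 152 to 319 (median 227) in the longest. The ranges overlapped, and the highest of the longest larvae was close to the median of the shortest. Its slope was -0.22 ± 0.05 log2 per mm (SE, edgeR adjusted p = 0.00371). The member of this gene, XM_025410969.1, averaged 1304 ± 95.5, 1367 ± 121 and 1306 ± 112 normalized counts in the shortest, intermediate and longest larvae (SD, n = 16 each).

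The same genes led a test of isoform usage, which asks whether the transcripts of a gene changed unequally with length. It used the same counts as the slope test, so it is no separate support for those slopes. Members were chosen for a low correlation with length, so a slope in a sister transcript by itself favours a usage call. The gene-level test of diffSpliceDGE in edgeR called 65 of 4348 genes (1.49%) and 2 of the 31 member genes, LOC105257251 (adjusted p = 0.00029) and LOC105257882 (adjusted p = 0.0429). Within LOC105257251 the member's reads were a share of 90.1 ± 2.46% in the shortest larvae, 84.3 ± 2.48% in the intermediate and 82.1 ± 3.84% in the longest (SD, n = 16 each). XM_011267732.3 took 6.92 ± 2.01%, 12.3 ± 2.83% and 13.3 ± 3.05% over the same groups. The last transcript, XM_011267733.3, took 3.00 ± 1.52%, 3.43 ± 2.46% and 4.59 ± 2.43%. The member's share was thus smaller, and that of XM_011267732.3 larger, in the longer larvae. The share of XM_011267732.3 was also higher in the 15 libraries that stand apart (median 14.2%) than in the 33 (median 9.53%), and the gene passed without those 15 (adjusted p = 6.28e-05). The gene did not pass by Simes' combination of the tests of single transcripts (adjusted p = 1.00), which called 16 of the 4348 genes. It passed with limma's diffSplice (adjusted p = 0.000129), which called 130 of the 4348. That test was not planned and was added after the Simes result was seen.

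In LOC105257882 the share of XM_025410964.1 was 14.5 ± 3.48% in the shortest larvae, 12.99 ± 2.79% in the intermediate and 11.2 ± 2.27% in the longest (SD, n = 16 each). The member took 62.6 ± 4.46%, 64.9 ± 4.49% and 64.8 ± 3.92%. XM_025410966.1 took 22.9 ± 4.07%, 22.2 ± 4.19% and 24.1 ± 3.94%. The means of the member and of XM_025410966.1 lay within 1 SD of each other, and the call was lost in 7 of 8 alternatives, without the 15 libraries among them (adjusted p = 0.482). The next genes by p were LOC105258084 (edgeR adjusted p = 0.257), LOC105250088 (0.353) and LOC105258302 (0.377), which did not pass. In LOC105258084 the other transcript, XM_025408843.1, took 17.5 ± 2.79%, 15.2 ± 3.35% and 13.2 ± 4.25% of reads from the shortest to the longest larvae. Of its alternatives the gene passed only without the 2 thinly sequenced libraries (edgeR adjusted p = 0.00457), a fit that was not planned.

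**Figure D5:**
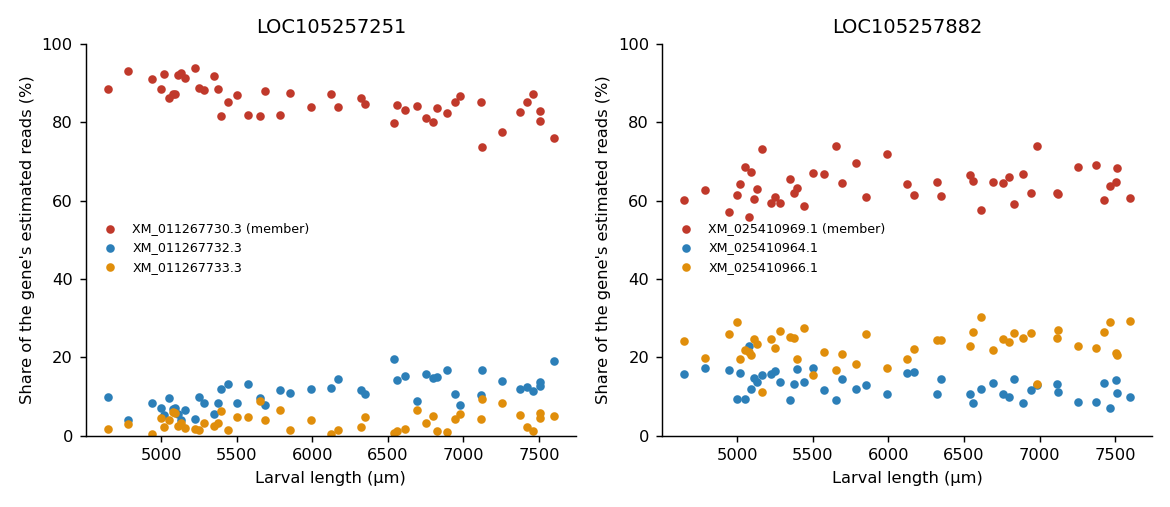
Share of the gene's estimated reads in percent (vertical axis) against larval length in µm (horizontal axis) for each transcript of LOC105257251 and LOC105257882, with 1 point per larva. In LOC105257251 the member's mean share is 90.1% in the 16 shortest and 82.1% in the 16 longest larvae, while XM_011267732.3 has 6.92% and 13.3%.

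Curved relations with length were tested as the part of a natural spline beyond a straight line. edgeR called 29.8% of the 19714 transcripts, 23 of the 150 members (15.3%) and 7 of the 49 other transcripts of their genes (14.3%). The rule had already chosen members for low spread, so nothing is read from their count. Without the 15 libraries that stand apart, 0 transcripts passed for the whole series and for the members. In that fit, with 8 of the 16 intermediate larvae left, 339 of 19661 transcripts, 3 of them members, had an unadjusted p under 0.05. With the 15 as a covariate 0 passed too, and 469 of 19714 had such a p. Both are smaller shares than the 0.05 that a test gives with no curves at all. The 0 calls therefore do not show that curves are absent. No other tool was run for curves.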

How the data were processed

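Polyadenylated RNA of 48 whole larvae was sequenced from both fragment ends in strand-specific libraries, per the labels' protocols. For each larva the authors deposited estimated counts and TPM per transcript, in the layout of Salmon, per the file headers, and for the series they deposited a normalized signal table (called normalized counts here) of 26314 entries. Tools listed in the submitters' processing notes are Salmon, DESeq2, DESeq, Trim Galore 0.6.7 and bcl2fastq 2.20. How the normalized table was made is not given in the sources used. From the values, the factor that divides the estimated counts differs from one transcript to the next. In it 1 cell is not a number and was read as 0, and 0 columns belong to other samples.

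The members and lists were chosen with earlier results of these data known. Symbols come from the RefSeq annotation (25811 entries matched by accession, 348 by symbol), with no coordinates, sequences or product names, so the named-gene parts that need them were not applied. The rule names the 10 steadiest and 5 most abundant members, 5 on either side of the limit, the 3 of widest range, the called other transcripts with a mean of at least 50 normalized counts, and the 5 genes of smallest p for usage.

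Estimated counts were rounded, passed through filterByExpr, scaled by TMM and fitted in R 4.3.3 with edgeR 4.0.16 on length in mm. Slopes carry an SE equal to slope over root F. Adjustment was by Benjamini-Hochberg over all features tested, at 0.05. Curves used a natural spline of 3 degrees of freedom. The 15 libraries were found on gene-level log2 CPM with a prior count of 2. Alternatives used DESeq2 1.42.0 and limma 3.58.1 (log2 of the authors' value + 1). The fits were checked on simulated counts, where calls on unchanged entries exceeded the nominal share. Tables came from pandas 2.3.3 in Python 3.11.15 and plots from matplotlib 3.10.9.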

Additional observations from a re-analysis of the deposited data

How the results depend on the processing

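Of the 150 members, 0 were chosen again with CPM by the total count or with TPM, 90 with TMM, 91 with the median absolute deviation over the median in place of the CV, 68 with no limit on the correlation and, added after seeing the data, 59 without the 15 libraries that stand apart. The other alternatives kept 102 (gene sums) to 145 (a median of at least 500). Leaving out 1 larva at a time kept 127 (without larva No. 43) to 147. The members' median CV was 15.3% with CPM by the total count, 9.57% with TMM, 20.0% with TPM and 7.71% without the 15. Members called for a slope were 0 in each alternative except 7 without the 15 libraries and 2 with them as a covariate. The called other transcripts were 2 in the main fit and 4 of 49 without the 2 shortest and 2 longest larvae, without the 2 libraries of fewer than 10000000 reads, and with DESeq2, fits that called 15.5%, 12.4% and 17.4% of all transcripts. Curves of members numbered 20 to 27, and 0 without the 15 or with them as a covariate. Member genes called for usage were 2 in the main fit, 1 without the 2 shortest and 2 longest larvae, with depth as a covariate, without the 15, with them as a covariate and with limma's diffSplice, and 0 by Simes. The test with limma's diffSplice was added after the Simes result was seen. Both named slopes passed in all 9 alternatives, with edgeR, DESeq2 or limma adjusted p up to 0.000343 for XM_011267732.3 and 0.0325 for XM_025410964.1. The cause of each change was not tested. No paired analysis was possible because all larvae form 1 group. Depth limits the thinnest library, where a member had as few as 33 estimated reads, and genes with several transcripts rest on estimated splits of reads.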
